A study of Mus musculus with 6 samples.

Results

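The genes described are Cd14 and 9 Toll-like receptor (TLR) genes, Tlr1, Tlr2, Tlr3, Tlr4, Tlr6, Tlr7, Tlr8, Tlr9 and Tlr13. They were chosen by name and make up 10 of the 55538 features in the table of unique molecular identifier (UMI) counts, which stand for single captured mRNA molecules. Peritoneal cells of adult C57BL/6 mice (C57BL/6J in the study's methods) were lavaged, plated and washed to remove non-adherent cells, and each library pooled the cells of several animals. The genotypes were MerTK +/+ and MerTK -/- (titled MerKD, animals backcrossed to C57BL/6J), which differ in an efferocytic receptor. Each genotype had a control with a change of medium and libraries after 2 h or 6 h with UV-treated, apoptotic human Jurkat T cells carrying GFP, 1 library per genotype and treatment and 6 libraries in all. Barcodes carry a library number from 1 to 6 that is not tied to a genotype or treatment, so no genotype or time point was compared. Values are given over the pool and as the range over library numbers.

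Of 7760 barcodes, 7665 cells were kept, and the libraries held 4234786 to 10287079 UMIs. By the UMIs of a few genes, 3101 cells were B cells (Cd79a plus Cd79b at least 4), 667 were T or NK cells (Cd3d plus Cd3e plus Nkg7 at least 2) and 2773 were macrophages (Csf1r plus Adgre1 plus Fcer1g at least 2, with few lymphocyte UMIs), while 1277 cells met no rule. Independent markers fitted these labels in part. All 8 macrophage markers were seen in at least 10% of macrophages, all 5 B cell markers in B cells and all 5 T cell markers in T/NK cells, but 0 of 5 NK cell markers reached 10% of T/NK cells. The lymphocyte rules did not bar macrophage genes, 122 B cells and 34 T/NK cells held a Csf1r or Adgre1 UMI, and 153 cells met both lymphocyte rules. Strict classes without those cells, chosen after the values were seen, held 2831 B cells and 485 T/NK cells. The strict T/NK cells held 1519175 of the 3434692 UMIs of the T/NK class. In the wider classes, cells that met both lymphocyte rules counted in both. A set of 28 barcode sequences occurred in 2 libraries, and the 63 cells called as doublets (0.822%) were kept.

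TLRs are membrane receptors of the innate immune system that bind microbial lipids, proteins or nucleic acids and signal through adaptors to NF-kB and interferon regulatory factors. Tlr1, Tlr2, Tlr4 and Tlr6 act mainly at the cell surface, while Tlr3, Tlr7, Tlr8, Tlr9 and Tlr13 bind nucleic acids in endosomes and need the chaperone Unc93b1 to get there. CD14 is a lipid-anchored co-receptor that hands lipopolysaccharide to TLR4 and lipopeptides to TLR2. Peritoneal macrophages respond to bacterial products through these receptors, and resident B-1 cells of the peritoneum respond to endosomal ligands.

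The genes lie on separate chromosomes in GRCm38 apart from 2 groups, as annotated by GENCODE. Tlr1 (chr5:64924679-64933563) and Tlr6 (chr5:64952031-64960097) are neighbours on the minus strand, and Tlr8 (chrX:167242696-167264329) and Tlr7 (chrX:167304929-167330558) are neighbours on the minus strand of the X chromosome, which also carries Tlr13 (chrX:106143204-106160493). Tlr3 (chr8:45395665-45411080) overlaps the antisense gene Gm45542, and the sources used here do not state whether counting used strand, so their reads cannot be told apart. RefSeq promoter windows of 250 bases before the start (GRCm38.p6) were found for 7 of the 10 genes. The sequences given here are the stretches of those windows that lie outside the GENCODE gene, for the surface receptor and the endosomal receptor with the highest macrophage share of UMIs, Tlr2 and Tlr13, and for the B cell receptor gene Tlr9. They are written 5′ to 3′ on the gene's strand. Capitals mark matches to 4 motifs, searched on both strands and chosen after the sequences were seen. These were the NF-kB motif GGGNNTTCC, the octamer ATGCAAAT, the AP-1 motif TGANTCA and the PU.1 core GAGGAA.
Tlr2, chr3:83841768-83841858, minus strand: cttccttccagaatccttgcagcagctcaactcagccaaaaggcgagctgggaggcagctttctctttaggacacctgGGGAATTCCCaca
Tlr13, chrX:106143025-106143203, plus strand: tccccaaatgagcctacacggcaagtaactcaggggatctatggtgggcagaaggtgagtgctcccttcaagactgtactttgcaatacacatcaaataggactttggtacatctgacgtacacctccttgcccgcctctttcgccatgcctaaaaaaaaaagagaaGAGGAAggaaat
Tlr9, chr9:106222348-106222597, plus strand: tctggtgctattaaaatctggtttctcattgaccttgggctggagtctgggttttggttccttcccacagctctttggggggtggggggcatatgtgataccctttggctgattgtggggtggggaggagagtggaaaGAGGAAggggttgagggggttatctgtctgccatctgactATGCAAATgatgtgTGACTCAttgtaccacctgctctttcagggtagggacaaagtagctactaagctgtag

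In Tlr2, 2 overlapping matches to the NF-kB motif, 1 on each strand, began 172 and 171 bases before the RefSeq start. In Tlr13 the PU.1 core lay 83 bases before the start. Tlr9 held the PU.1 core at 112 bases, the octamer, a motif known from immunoglobulin promoters, at 72 bases and the AP-1 motif at 58 bases. Of all 32851 RefSeq windows of this length, 23.3% held the PU.1 core, 6.75% the AP-1 motif, 4.98% the NF-kB motif and 1.60% the octamer. A match is a description of the letters and not a measured binding site.

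The first comparison asked in which cells the genes were detected. Macrophages carried 92.4% of all Cd14 UMIs, 92.4% of Tlr13 UMIs, 91.2% of Tlr2 UMIs and 88.4% of Tlr4 UMIs in kept cells. B cells carried 87.0% of Tlr9 UMIs, 65.4% of Tlr1 UMIs and 56.9% of Tlr7 UMIs. These shares also follow class size, as B cells held 20105833, macrophages 13778746 and T/NK cells 3434692 of the 39997437 kept UMIs. The set fell into genes detected mostly in macrophages, Tlr9 detected mostly in B cells, Tlr7 detected in both, and Tlr1 detected in every class. A ratio between classes was called when it reached 2-fold on the log2(CPM + 1) scale, where CPM is UMIs of the gene per 1000000 UMIs of the class, and went the same way in all 6 libraries, among features with a mean of at least 5 CPM. Against B cells, 8 members passed that filter, and 5 were called higher in macrophages, where 18.0% of all features tested were, and 1 was called lower, where 21.1% were. Against T/NK cells, 8 members passed, 6 were called higher (16.2% of all features) and 1 lower (17.4%). The median log2 ratio of the tested members was 3.04 over B cells and 3.18 over T/NK cells, while over all features it was -0.16 and -0.23. Intervals here are exact and cover counting error only, and no p-value is given. A pooled CPM value alone cannot tell fewer cells of a type within the class from less RNA per cell. Shares of cells at equal depth are given beside it for some genes.

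**Figure D1:**
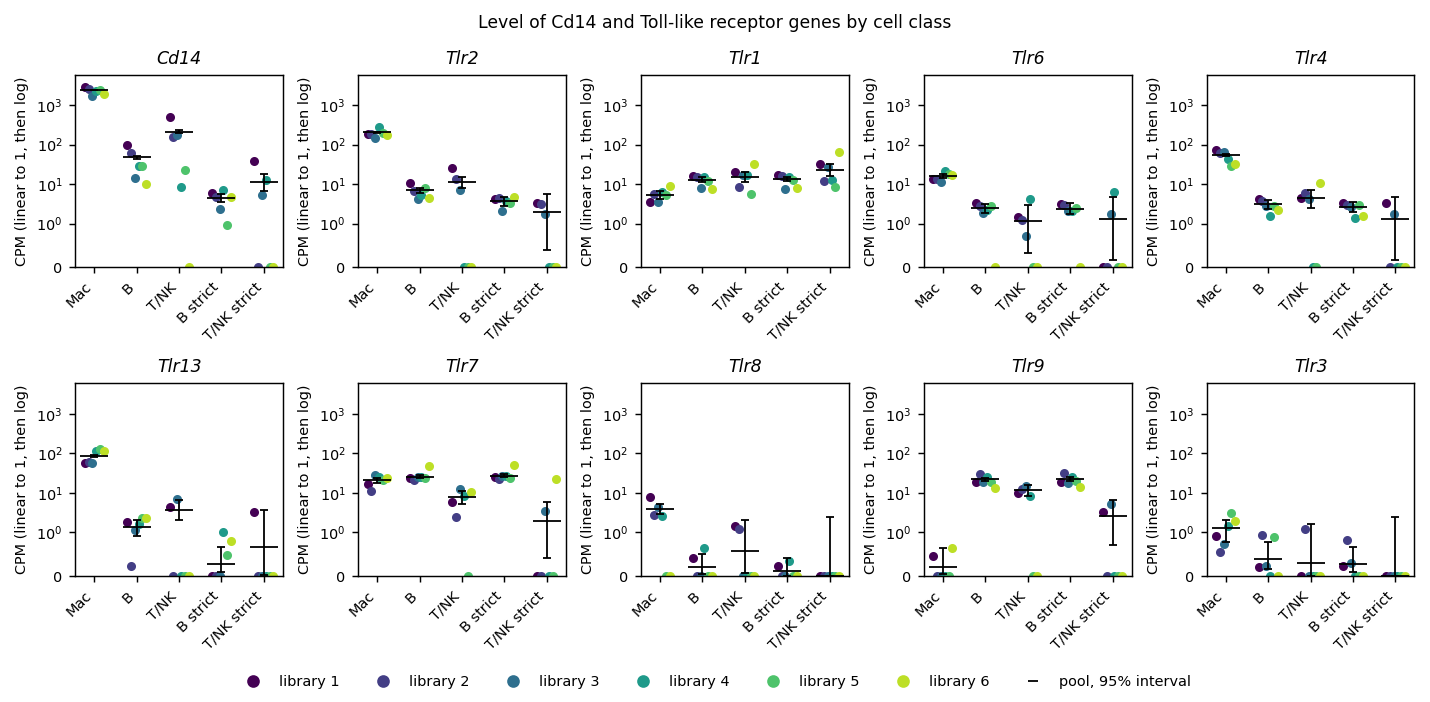
Each panel plots 1 gene, with CPM on a scale that is linear to 1 and logarithmic above, in macrophages (Mac), B cells, T/NK cells and the strict lymphocyte classes. Dots are the 6 library numbers and the black mark is the pool with its exact 95% Poisson interval. Cd14, Tlr2, Tlr4 and Tlr13 sit higher in macrophages than in B cells in every library, while Tlr9 sits between 13.6 and 30.6 CPM in B cells and at 0 in 4 of 6 macrophage libraries.

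Cd14, the co-receptor, had the largest count of the set, with 33138 UMIs in macrophages. Its level in macrophages was 2405 CPM (95% interval 2379 to 2431), with 1745 CPM in the lowest library, a median of 2329 and 2827 in the highest. In B cells the lowest library had 9.79 CPM, the median was 28.7 and the highest 97.2, and in T/NK cells libraries ran from 0 to 506 CPM. No macrophage library overlapped a lymphocyte library, and the lymphocyte libraries differed more among themselves, as ratios, than the macrophage libraries did. Cd14 was 50.6-fold higher in macrophages than in B cells (47.4 to 54.0). In the strict classes the level was 4.46 CPM in B cells and 11.2 CPM in T/NK cells, and the ratios rose to 539-fold (432 to 682) and 215-fold (134 to 369). The summed level of the 8 macrophage markers moved with this, at 508 CPM in B cells and 1428 CPM in T/NK cells against 254 and 207 CPM in the strict classes and 18655 CPM in macrophages. At an equal depth of 1500 UMIs per cell, 86.0% of macrophages (84.7 to 87.3) held a Cd14 UMI, against 0.573% of strict B cells (0.328 to 0.928).

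Tlr2, which pairs with TLR1 or TLR6 to bind bacterial lipoproteins, was the TLR with the most UMIs. Macrophages held 205 CPM (198 to 213), with 151 in the lowest library, a median of 184 and 283 in the highest. B cells held 4.20, 6.09 and 10.5 CPM as lowest, median and highest library, and 3 of 6 T/NK libraries held no Tlr2 UMI. The macrophage range lay wholly above both lymphocyte ranges. The ratio over B cells was 29.7-fold, so that B cells stood at 0.0337 of the macrophage level (0.0282 to 0.0399), and the ratio over strict B cells was 55.2-fold (43.2 to 71.8). A Tlr2 UMI was found in 45.1% of macrophages at a median depth of 4426 UMIs and in 2.19% of strict B cells at a median depth of 5296 UMIs. At 1500 UMIs per cell the shares were 22.3% (20.8 to 24.0) and 0.608% (0.355 to 0.972).

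The partner genes of Tlr2 went separate ways. Tlr6 had 16.2 CPM in macrophages (14.1 to 18.5; 11.6, 15.6 and 21.5 CPM as lowest, median and highest library) and 2.44 CPM in B cells (0 to 3.30 over libraries), 6.64-fold higher in macrophages (4.86 to 9.24) with ranges that did not overlap. Tlr1 ran the other way and was detected in every library of each class. In macrophages it had 5.23 CPM (4.09 to 6.58; 3.45, 5.47 and 8.99 over libraries), in B cells 13.1 CPM (11.5 to 14.8; 7.53, 13.6 and 16.3) and in T/NK cells 15.4 CPM (11.6 to 20.2; 5.78, 17.0 and 31.5). These library ranges overlapped. Tlr1 was 2.50-fold lower in macrophages than in B cells (1.92 to 3.30), in 5 of 6 libraries and so not called, and 2.95-fold lower than in T/NK cells (2.03 to 4.27), in 6 of 6. The call against T/NK cells was lost with at least 1000 genes per cell or with doubled class thresholds, and the call against B cells appeared without library 6. In strict T/NK cells, where the macrophage markers were low, Tlr1 was at 23.0 CPM (16.1 to 32.0) and was the TLR with the most UMIs, 35 of them.

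Tlr4, the receptor for lipopolysaccharide, had 54.4 CPM in macrophages (50.6 to 58.5), with 29.2 in the lowest library, a median of 51.8 and 73.0 in the highest. B cells held 3.08 CPM, with 1.59, 2.75 and 4.12 as lowest, median and highest library. Every macrophage library was above every B cell library. The ratio was 17.7-fold over B cells (13.6 to 23.3) and 20.7-fold over strict B cells (15.4 to 28.5). In strict B cells 46 UMIs of Tlr4 remained, at 2.63 CPM (1.93 to 3.51). At equal depth 7.55% of macrophages (6.58 to 8.61) and 0.537% of strict B cells (0.301 to 0.884) held a Tlr4 UMI.

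Tlr13, which binds a bacterial ribosomal RNA sequence in mice, was the endosomal receptor with the most UMIs in macrophages, at 85.9 CPM (81.0 to 90.9). The lowest library had 57.8 CPM, the median was 88.0 and the highest 133. B cells held 1.39 CPM (0.234, 1.72 and 2.26 as lowest, median and highest library), and 4 of 6 T/NK libraries held no Tlr13 UMI. The ranges were far apart. The ratio over B cells was 61.7-fold (42.4 to 93.2) and over strict B cells, which held 5 UMIs, 300.2-fold (128 to 926). At equal depth 12.6% of macrophages (11.3 to 13.9) held a Tlr13 UMI, against 0.107% of strict B cells (0.0221 to 0.313).

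Tlr9, the receptor for unmethylated CpG DNA, showed the reverse pattern. B cells held 21.9 CPM (19.9 to 24.1), with 13.6, 19.1 and 30.6 as lowest, median and highest library, while macrophages held 3 UMIs in all, or 0.218 CPM (0.0449 to 0.636), and none in 4 of 6 libraries. The B cell range lay wholly above the macrophage range. The level in B cells was 101-fold that in macrophages (34.2 to 490), an interval that is wide because it rests on 3 UMIs. T/NK cells held 11.6 CPM and 5.10% of them had a Tlr9 UMI, but B cell markers also summed to 837 CPM there, against 2452 CPM in B cells. In strict T/NK cells, with B cell markers at 192 CPM, Tlr9 fell to 4 UMIs or 2.63 CPM (0.717 to 6.74), 8.45-fold below strict B cells (3.27 to 31.2). At equal depth 3.04% of strict B cells (2.44 to 3.75) and 0 of 2690 macrophages held a Tlr9 UMI.

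Tlr7, a receptor for single-stranded RNA that uses the same chaperone, did not separate B cells from macrophages. Its level was 25.8 CPM in B cells (23.6 to 28.1; 21.5, 24.8 and 48.9 over libraries) and 20.6 CPM in macrophages (18.3 to 23.1; 11.1, 23.0 and 28.2), with overlapping ranges and a macrophage-over-B ratio of 0.80 (0.690 to 0.926). In T/NK cells it was 7.86 CPM and in the strict class 1.97 CPM (0.407 to 5.77), from 3 UMIs. Tlr7 was thus called higher in macrophages than in T/NK cells, at 2.62-fold (1.76 to 4.05), and also higher in B cells than in T/NK cells, at 3.28-fold (2.23 to 5.02). That last comparison was added after the data were seen, and 2.38% of its features were called higher in B cells and 4.02% lower. Cells that met both lymphocyte rules counted on both of its sides. Against strict T/NK cells the Tlr7 ratios were 10.4-fold (3.54 to 50.9) for macrophages and 13.8-fold (4.68 to 67.0) for strict B cells. Within strict B cells, Tlr7 and Tlr9 differed little with Bhlhe41, a transcription factor of B-1a cells. Tlr9 was 1.08-fold (0.832 to 1.39) and Tlr7 0.757-fold (0.581 to 0.975) in the 422 cells with a Bhlhe41 UMI, and neither went the same way in all libraries.

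Tlr8 and Tlr3 had the fewest UMIs of the set. Tlr8, a relative of Tlr7, had 54 UMIs in macrophages (3.92 CPM, 2.94 to 5.11), of which 34 came from library 1, and 0 UMIs in 2 libraries. It had 4 UMIs in B cells and 2 in T/NK cells. Its macrophage level was 19.7-fold that in B cells (7.26 to 74.9), higher in 4 libraries and lower in 0. Tlr3, the receptor for duplex RNA, had 18 UMIs in macrophages (1.31 CPM, 0.774 to 2.07), 8 in B cells and 1 in T/NK cells. Neither passed the filter of 5 CPM, and the reads of Tlr3 may include those of its antisense neighbour.

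The receptors need partners, and these had patterns of their own across classes. A list of 52 genes of the pathway was read the same way, 44 passed the filter against B cells, and 16 were called higher and 7 lower in macrophages, where 18.0% of all features were called higher and 21.1% lower. Its median log2 ratio was 0.49, against -0.16 over all features. Among co-receptors and chaperones, 4 of 11 tested were higher in macrophages and 4 lower. Cd36, a scavenger receptor that aids TLR2, was at 1575 CPM in macrophages and 47.1-fold above B cells (43.6 to 51.0), and Lbp, which carries lipopolysaccharide to CD14, was at 17.9 CPM in macrophages with no UMI in B cells. Cd180 and Ly86, which form a TLR4-like receptor known from B cells, were 3.54-fold (3.22 to 3.90) and 4.48-fold (4.14 to 4.85) lower in macrophages. Unc93b1, the chaperone that both Tlr9 and Tlr13 need, was level between them, at 137 CPM in macrophages and 139 CPM in B cells, and 2.75-fold below macrophages in T/NK cells (2.35 to 3.24). Ly96, the subunit that binds lipopolysaccharide with TLR4, was at 16.5 CPM in macrophages and 10.7 CPM in B cells and was not called. None of Tlr5, Tlr11 and Tlr12 passed the filter in any comparison.

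Downstream of the receptors, 6 of 18 tested adaptors, kinases and ligases were called higher in macrophages than in B cells and 0 lower, beside the same 18.0% and 21.1% of all features. Tirap, the bridging adaptor of TLR2 and TLR4, was 3.14-fold higher (2.67 to 3.69) and Ikbke, a kinase that acts on interferon regulatory factors, 7.47-fold higher (with B cells at 0.134 of its level, 0.111 to 0.160), while Myd88, the adaptor shared by most TLRs, was 2.03-fold higher in 6 of 6 libraries and fell just short on the log2(CPM + 1) scale. Among transcription factors Irf3 and Irf8 were lower, by 2.88-fold (2.47 to 3.37) and 2.39-fold (2.25 to 2.53). Among 9 tested inhibitors 6 were higher and 1 lower, against the same shares. Dusp1, a phosphatase of MAP kinases, was 19.8-fold higher (17.3 to 22.6) and Tnfaip3, which removes ubiquitin from signalling proteins, 4.41-fold higher (4.11 to 4.72), whereas Socs1 was 2.50-fold lower (2.19 to 2.87).

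The second set of comparisons asked whether the receptors differ among macrophages, split by a UMI of Gata6, the transcription factor of resident large peritoneal macrophages (657 cells), by at least 2 UMIs of Tnf, a cytokine induced through TLRs (260 cells), and by a UMI of Irf4, a transcription factor of small, monocyte-derived peritoneal macrophages (277 cells). The groups overlap, with 52 cells in both Gata6 and Tnf groups, 22 in Gata6 and Irf4 and 23 in Tnf and Irf4, and 1675 macrophages were in none. Cells with more UMIs pass a threshold more often, and the median depth was 5542 UMIs in Gata6 cells, 6297.5 in Tnf cells and 4182 in Irf4 cells, against 3988 in cells of none of the groups. CPM values and shares at equal depth are therefore given, and the part of depth in the differences was not tested.

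**Figure D2:**
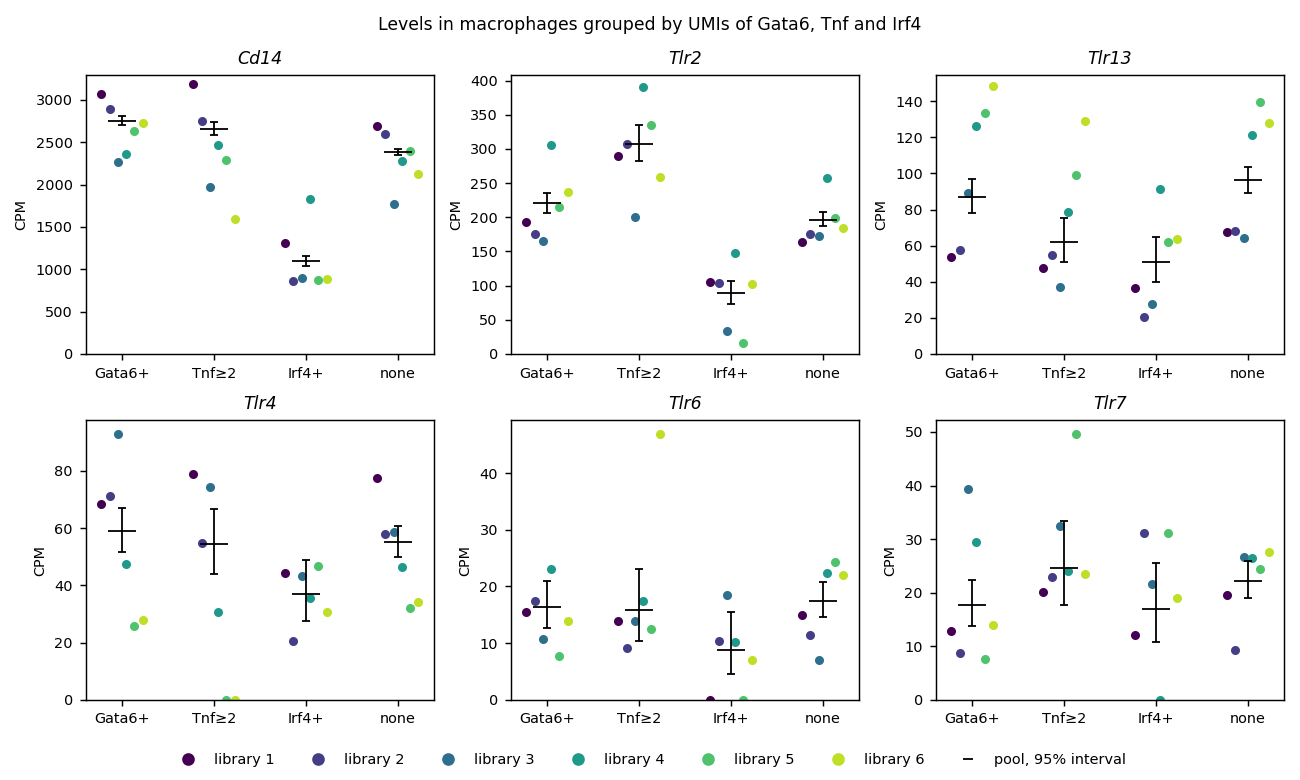
Levels in CPM of 6 genes in macrophages with a Gata6 UMI, at least 2 Tnf UMIs, an Irf4 UMI, or none of these, where the first 3 groups share some cells. Dots are library numbers and black marks are the pool with its exact 95% Poisson interval. Cd14 and Tlr2 are low in Irf4 cells, Tlr2 is high in Tnf cells, and Tlr4 and Tlr7 show overlapping groups.

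The Irf4 split was the one of the 3 in which members were called. With 6 members tested, 0 were called higher and 2 lower in Irf4 cells, where 3.45% of all features were called higher and 3.07% lower. The median log2 ratio of the tested members was -0.83, against 0.07 over all features. Cd14 was at 1099 CPM in Irf4 cells (1044 to 1157; 859, 889 and 1831 as lowest, median and highest library) and at 2547 CPM in the others (2519 to 2575; 2005, 2382 and 2919), and the library ranges did not overlap. Its ratio was 0.43 (0.409 to 0.455). Tlr2 was at 88.7 CPM (73.6 to 106; 15.6, 103 and 147 over libraries) against 218 CPM (210 to 226; 187, 194 and 291), again without overlap, and 2.46-fold lower (2.05 to 2.98). At equal depth 65.4% of Irf4 cells (59.4 to 71.1) and 88.3% of the others (87.0 to 89.6) held a Cd14 UMI, and 9.67% (6.41 to 13.8) and 23.8% (22.1 to 25.5) a Tlr2 UMI.

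Tlr13 was lower in Irf4 cells in 6 of 6 libraries, at 51.0 CPM against 89.7 CPM, but at 1.76-fold (1.38 to 2.28) it was under the threshold in the pool. As a mean of the within-library log2 ratios it passed. Tlr4 was at 37.0 CPM against 56.3 CPM, lower in 5 of 6 libraries, and Tlr6 at 8.87 against 17.0 CPM, from 12 UMIs in Irf4 cells. Without library 3, Tlr6 was called lower as well. Tlr7 was at 17.0 CPM (10.8 to 25.5) against 21.0 CPM (18.5 to 23.7), lower in 4 of 6 libraries and not called. With at least 2 Irf4 UMIs set against 0, Tlr7 was called lower, at a log2 ratio of -1.05. That call rests on few counts, as all Irf4 cells together held 23 Tlr7 UMIs. Setting cells with Irf4 as the only one of the 3 genes against cells with none gave close ratios, 0.41 for Tlr2 (0.323 to 0.506), 0.42 for Cd14 (0.393 to 0.445) and 0.54 for Tlr13 (0.401 to 0.708). Cells of the Irf4 group also carried more SPM marker UMIs (16960 CPM summed over 6 genes, 8908 to 24111 over libraries) than cells of no group (6524 CPM, 2256 to 11660), a list that includes MHC class II genes and summed to 12536 CPM in B cells, and fewer LPM marker UMIs (558 against 1620 CPM), where SPM and LPM are small and large peritoneal macrophages. The 8 general macrophage markers, all of them seen in at least 10% of cells of both groups, summed to 13202 CPM in Irf4 cells (8831 to 16416 over libraries) and 18381 CPM in cells of no group (16901 to 20430). Eosinophil markers summed to 143 CPM in Irf4 cells (65.9 to 327) and 9.29 CPM in cells of no group (1.28 to 37.8), all of it from Siglecf, with Prg2 and Epx at 0 in both. The part of these markers in the lower Cd14 and Tlr2 was not tested.

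One receptor-like gene went the other way in Irf4 cells. Of 43 pathway genes tested, 1 was called higher and 3 lower, where 3.45% of all features were called higher and 3.07% lower. The median log2 ratio of the pathway genes was -0.07, against 0.07 over all features. Cd180 was at 123 CPM in Irf4 cells and 28.0 CPM in the others, 4.38-fold higher (3.62 to 5.29) in 6 of 6 libraries, and its partner Ly86 was 1.82-fold higher in 5 of 6 libraries and not called. B cell markers moved with this, their 5 genes summing to 106 CPM in Irf4 cells (31.1 to 169 over libraries) and 14.4 CPM in cells of no group (5.60 to 37.5), against 2452 CPM in B cells, where Cd180 was at 132 CPM. Their part in the result was not tested. Dendritic cell markers summed to 27.4 CPM in Irf4 cells, with Xcr1 and Clec9a at 0, and plasmacytoid dendritic cell markers to 22.2 CPM, against 15.3 and 3.50 CPM in cells of no group. Called lower were Irak3, an inhibitor of TLR signalling, by 3.05-fold (1.94 to 5.11), Ikbke by 2.84-fold (1.94 to 4.34) and Lbp by 2.87-fold (1.48 to 6.35).

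**Figure D3:**
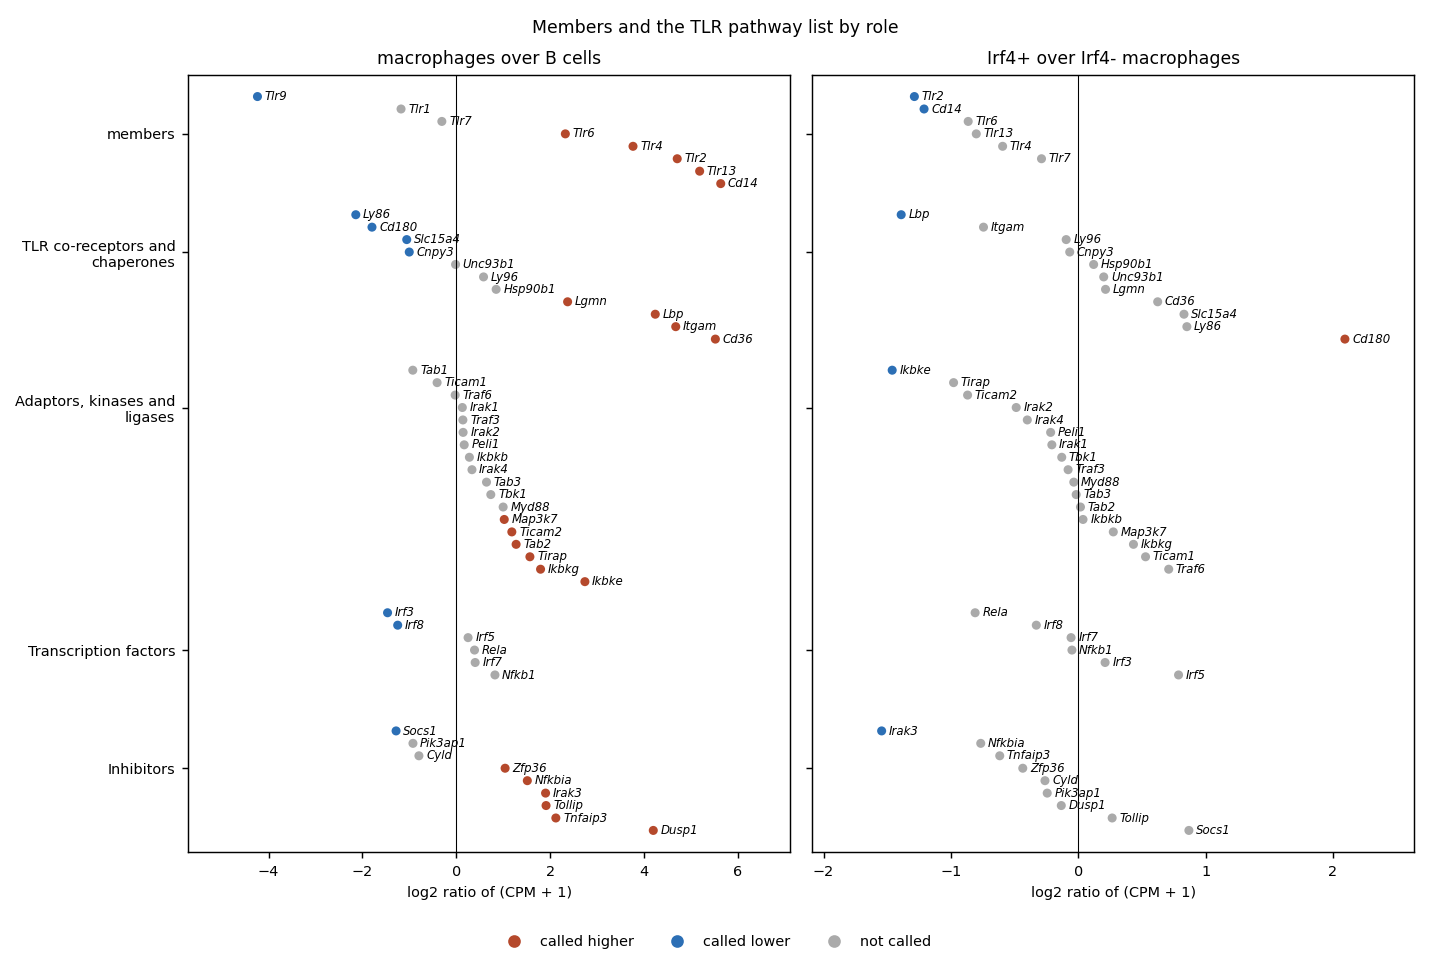
The log2 ratio of (CPM + 1) for each member and pathway gene that passed the filter, by role, for macrophages over B cells (left) and for Irf4 over other macrophages (right). Red and blue mark genes called higher and lower, grey those not called. On the left 5 members are called higher and Tlr9 lower, and on the right Tlr2 and Cd14 are called lower and Cd180 higher.

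Tnf cells showed 0 members called in either direction among 6 tested, where 0.575% of all features were called higher and 1.15% lower. Tlr2 came closest. It was at 308 CPM in Tnf cells (282 to 335; 200, 298 and 390 as lowest, median and highest library) and 191 CPM in the others (183 to 199; 142, 167 and 266), 1.61-fold higher (1.46 to 1.77) and higher in 6 of 6 libraries, though the ranges over libraries overlapped. By the number of Tnf UMIs, Tlr2 was at 186 CPM in macrophages with 0, 221 CPM with 1, 289 CPM with 2 to 3 and 323 CPM with 4 or more. At equal depth the shares of cells with a Tlr2 UMI were 20.9%, 24.5%, 30.0% and 33.1%, and the intervals of the first and last did not overlap. With each library weighted equally, the levels were 181, 197, 292 and 293 CPM. The last bin held 3 to 49 cells per library, with as few as 4 Tlr2 UMIs in a library. These bins of Tnf, and the equal weights, were chosen after the values were seen.

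Tlr13 had the opposite sign across the Tnf bins. Its level was 91.8, 73.8, 67.0 and 58.2 CPM with 0, 1, 2 to 3 and 4 or more Tnf UMIs, and the share at equal depth was 13.9%, 9.03%, 6.92% and 3.94%. Libraries differ in Tlr13 and in their part of each bin, and with each library weighted equally the levels were 93.9, 85.0, 77.7 and 62.1 CPM. Cells with 4 or more Tnf UMIs were below cells with 0 in 5 of 6 libraries. That bin held as few as 3 cells, and as few as 1 Tlr13 UMI, in a library. Equal weights give such a library the same part as the largest. Between the groups of at least 2 and fewer Tnf UMIs, Tlr13 was at 62.2 and 89.2 CPM, a ratio of 0.70 (0.565 to 0.851), lower in 5 of 6 libraries. The log2 ratio was -0.51 in the pool and -0.35 as the mean of the within-library ratios. Set against cells of no group, Tlr13 in cells with Tnf alone was lower in 6 of 6 libraries, at 0.54-fold (0.410 to 0.702). Tlr4 did not follow either gene. Its level was 54.5 CPM in Tnf cells and 54.4 CPM in the others, a ratio of 1.00 (0.798 to 1.25), though libraries 5 and 6 held no Tlr4 UMI in Tnf cells and the mean of the within-library log2 ratios was -1.75. Cd14 was 1.12-fold higher (1.09 to 1.16) in 4 of 6 libraries. In the pathway list 3 genes were called higher and 0 lower of 43 tested, where 0.575% of all features were called higher and 1.15% lower. All 3 were on its list of inhibitors, of which 9 were tested. These were Tnfaip3, 2.43-fold (2.24 to 2.62), Zfp36, which destabilizes Tnf mRNA, 2.14-fold (2.04 to 2.24), and Nfkbia, the inhibitor of NF-kB, 2.11-fold (1.99 to 2.25).

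Gata6 set no member apart by the 2-fold rule, with 0 of 6 called in either direction where 0.185% of features were called higher and 1.85% lower. Cd14 was at 2756 CPM in Gata6 cells (2705 to 2809; 2268, 2680 and 3072 over libraries) and 2263 CPM in the others (2234 to 2293; 1613, 2260 and 2692), 1.22-fold higher (1.19 to 1.25) and higher in 6 of 6 libraries with overlapping ranges. Between cells with Gata6 alone and cells of no group, Cd14 was 1.17-fold higher (1.14 to 1.20), in 5 of 6 libraries. At equal depth 94.5% of Gata6 cells (92.4 to 96.1) and 83.3% of the others (81.6 to 84.9) held a Cd14 UMI. Tlr2 (1.11-fold, 1.02 to 1.20), Tlr4 (1.12-fold, 0.959 to 1.31), Tlr13 (1.02-fold, 0.898 to 1.16) and Tlr6 (1.02-fold, 0.752 to 1.37) had upper bounds of at most 1.37-fold. Those bounds hold counting error in the pool alone. Single libraries went beyond them, to a log2 ratio of 0.83 for Tlr13 and -1.40 for Tlr6. The 1 pathway gene of 43 that was called, Cd180, was 2.22-fold lower in Gata6 cells (1.74 to 2.86). Unc93b1 was 0.803-fold and lower in 6 of 6 libraries. The cells without Gata6 included Irf4 cells, in which Cd180 was higher. In cells with Gata6 alone Cd180 was at 18.6 CPM, against 35.0 CPM in cells of no group. That was 1.88-fold lower (1.42 to 2.51) in 6 of 6 libraries and under the threshold.

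Among macrophages, libraries differed in Tlr4 and Tlr13 by more than their counting intervals. Tlr4 ran from 29.2 CPM (library 5) to 73.0 CPM (library 1) and Tlr13 from 57.8 CPM (library 1) to 133 CPM (library 5). The library with the most Tlr4 was thus among those with the least Tlr13. The median depth of macrophages ran from 2861 to 6246.5 UMIs over libraries, and its part in these differences was not tested. Tlr2 was highest in library 4, at 283 CPM (265 to 301).

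**Figure D4:**
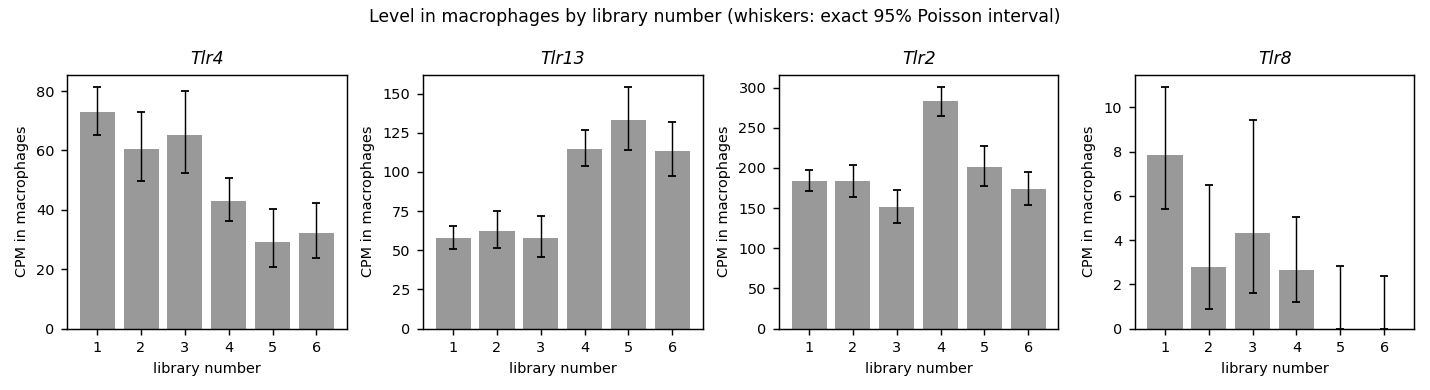
CPM in macrophages by library number for Tlr4, Tlr13, Tlr2 and Tlr8, with exact 95% Poisson intervals as whiskers. Tlr4 lies between 29.2 and 73.0 CPM and Tlr13 between 57.8 and 133 CPM, and Tlr8 has no UMI in libraries 5 and 6.

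Receptors and their partners were then looked for in the same macrophages, at 1500 UMIs per cell. Of 601 macrophages with a Tlr2 UMI, 0.998% also held Tlr1 and 2.50% Tlr6, against 0.957% and 2.39% of those without one. For Tlr4, 89.7% of 203 macrophages with it and 85.7% of those without held Cd14, and 2.46% and 2.61% held Ly96. The intervals of all these pairs overlapped. Unc93b1 was found in 22.5% of 338 macrophages with Tlr13 (18.1 to 27.3) and 17.3% of those without (15.8 to 18.9), higher in 5 of 6 libraries, and with Tlr7 in 19.7% and 17.9%. Tlr2 with Tlr1 or Tlr6, Tlr4 with Ly96 and Tlr7 with Unc93b1 were each found together in 5 to 15 macrophages, so small differences in these pairs were not detectable at this depth.

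The genes whose levels followed each receptor most closely were sought over 36 points, the 6 groups (B, T/NK and 4 kinds of macrophage) in the 6 libraries, among 9436 features. The points share libraries and differ in depth, and the correlations describe the groups and carry no p. Cd14 was most like Fn1 (Pearson r = 0.995), Thbs1 (0.988) and Lyz2 (0.987). Tlr2 was most like Abca1 (0.975), Fam20c (0.972) and Fam219a (0.970), Tlr4 like Tspan4 (0.938), and Tlr6 like Rxra (0.875). Among the genes most like Tlr13 were Ctsd (0.974) and Ftl1 (0.973). Tlr9 was most like 2 immunoglobulin light chain genes, Igkv1-110 (0.950) and Igkv10-96 (0.939), and Fcrla (0.930). Tlr1 was most like Ssbp3 (0.831), and for Tlr7 no gene passed 0.654, the value for Ppp1r10. Among the members themselves, Tlr2 was closest to Cd14 (0.945) and Tlr13 to Tlr2 (0.921), and Tlr4 was less close to Cd14 (0.671).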

How the data were processed

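Peritoneal cells were sequenced on the 10x Genomics droplet platform. The deposited values are raw UMI counts per gene and cell in 1 table of all 6 libraries, which the authors made with Cell Ranger from reads aligned to mouse (GRCm38) and human genomes. The submitters' processing notes give Cell Ranger 2.2, the paper another version. Cells with at least 500 genes, a log genes to log UMIs ratio of at least 0.8 and at most 10% mitochondrial UMIs were kept. Counts were summed per class and library, with exact Poisson, binomial and conditional 95% intervals (scipy 1.17.1, Python 3.11.15). Shares were also taken after thinning cells to 1500 UMIs. Doublets were called with Scrublet in scanpy 1.11.5. Free RNA was not removed. The scripts were tested on simulated data. With 1 library per condition and library numbers not tied to samples, no test was run. The members and lists were chosen with earlier results of these data known. Named are the members, pathway genes, class genes, markers and the 3 features most correlated with each member of at least 100 UMIs. Alternatives changed filters, thresholds, classes and libraries. One gene among those most like Tlr13 is not reported here.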

Additional observations from a re-analysis of the deposited data

Results flagged for a closer look

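Cells that met no class rule entered none of the comparisons, and 8 of the 10 members stood above what a count of 0 allows there (0.699 CPM for 3 UMIs in 1277 cells, median depth 2735 UMIs). Tlr3, with 3 UMIs, lay at that limit, and Tlr8 had 0 UMIs. Cd14 was at 248 CPM, Tlr2 at 25.4 CPM, Tlr7 at 22.8 CPM, Tlr9 at 13.7 CPM, Tlr13 at 13.3 CPM, Tlr1 at 7.45 CPM, Tlr4 at 5.82 CPM and Tlr6 at 3.73 CPM. These cells held a Cd14 UMI in 19.4% of cases. Which types they belong to was not tested.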

How the results depend on the processing

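No paired analysis of genotypes or time points was possible because library numbers are not tied to samples. Cell classes and macrophage groups were set side by side within each library as directions and log2 ratios, and no test of them was run. Of 332 alternative values of counts of called genes, 306 stayed within 1.5 times the main count. No log2 ratio of a called member changed sign. Members not called were left out of that check, and some of their log2 ratios did change sign. Among these were Tlr7 for Irf4 (-0.29, and 0.07 without library 4) and Tlr13 for Gata6 (0.03, and -0.14 with exclusive groups). For single members, 427 of 488 alternative CPM values and 785 of 830 log2 ratios moved by no more than the counting error of the main value. That error is wide for genes with few UMIs. Cd14, with the most UMIs, moved further in 6 of 16 ratios over B cells and 7 of 16 over T/NK cells. Only 2 of 30 shares of cells stayed within their counting interval at 1500 UMIs per cell, where fewer UMIs were read. Tlr1 was no longer called lower than in T/NK cells (1 to 0 members) with at least 1000 genes per cell, with doubled class thresholds, and with at least 20 CPM, a filter that also left untested Tlr9 against B cells (1 to 0), Tlr6, and Tlr7 against T/NK cells. With doubled thresholds 743 features were lower than in T/NK cells. At 20 CPM fewer features were tested, and 967 were lower than in T/NK cells, 1109 higher and 952 lower than in B cells, 7 higher and 80 lower for Gata6, 16 lower for Tnf and 174 lower for Irf4. With no filter 267, 372 and 487 were lower for Gata6, Tnf and Irf4. Exclusive groups gave 9 higher for Gata6 and 179 lower for Tnf, and the Gata6 split without Irf4 cells, chosen after the data were seen, 7 higher and 104 lower. Thresholds of 2, 4 and 2 UMIs gave 309 lower for Tnf and 586 for Irf4, and means of within-library log2 ratios 295 and 411. Leaving out 1 library at a time, features lower for Tnf ran from 109 to 180 (164 without library 1 and 180 without library 4, against 98 with all), and members lower than in B cells from 1 to 2, Tlr1 joining Tlr9 without library 6. For Irf4 the members lower ran from 2 to 3, and Tlr7 joined them with thresholds of 2, 4 and 2 UMIs. The cause of these changes was not tested. Depth limits Tlr3, Tlr8 and the pairs of genes found together in few cells.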

Other observations

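The values of Tlr13 and Tlr4 in macrophages fell into separate clusters by library number, and since the numbers are not tied to a sample these are given as values alone. From library 1 to 6, Tlr13 was at 57.8, 62.3, 57.9, 115, 133 and 114 CPM. Tlr4 was at 73.0, 60.6, 65.1, 43.0, 29.2 and 32.1 CPM. Tlr8 was at 7.83, 2.78, 4.34, 2.65, 0 and 0 CPM. Its lowest values were in the same libraries as those of Tlr4, but with no wide gap between 2.78 and 2.65 CPM. Cd14, at 2827, 2610, 1745, 2275, 2383 and 1877 CPM, and Tlr2, at 184, 183, 151, 283, 201 and 173 CPM, did not fall into such clusters. The median depth of macrophages was 6246.5, 4929, 6068, 4595, 3687 and 2861 UMIs. No groups of libraries were compared.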
